A study of Homo sapiens with 16 samples.

Results

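The comparison is between 2 perturbed states of T47D, a long-established human breast carcinoma line with luminal features and an active estrogen receptor gene. In the first state the cells carried a knockout of FAH and received vehicle (4 libraries). In the second they carried a control guide and received abemaciclib at 500 nM for 3 days (4 libraries). These 8 libraries of the 16 in the series were compared directly, over the 15665 of 78894 non-spike-in features with at least 1 CPM (assigned reads of the feature per 1000000 assigned reads) in at least 4 of them. Cells with the control guide and vehicle (4 libraries) gave the level without either perturbation, and 4 libraries with both entered the fit only for its estimate of spread. All cells were kept in high-glucose medium with serum, and the question set by the choice of libraries is which parts of the transcriptome separate loss of FAH from drug treatment. Genotype and treatment both differ between the states, so in the direct comparison the part of each cannot be told apart. The difference of each state from control vehicle is given beside it for some genes and lists. Higher or lower in the knockout means relative to control abemaciclib unless control vehicle is named. The labels name neither the guides nor whether the knockout cells are 1 clone or a pool, and leave unsaid whether the 4 libraries of a group are separate cultures. What the p-values measure is thus the spread among the libraries at hand, and this spread may be technical. A gene is marked "shared reads" at its first mention where its value was a whole number of reads in at most 8 of the 16 libraries, which was so for 4844 tested genes (30.9%), and the size of the shared part is not known.

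FAH encodes fumarylacetoacetate hydrolase, which carries out the last step of tyrosine breakdown and releases fumarate and acetoacetate. Abemaciclib inhibits CDK4 and CDK6, the kinases that bind D-type cyclins and phosphorylate the retinoblastoma protein RB. Unphosphorylated RB holds back the E2F factors that drive the genes of DNA synthesis, while the mitotic genes that follow are held back in resting cells by the DREAM complex and are switched on by MYBL2 and FOXM1. Interferon-stimulated genes are switched on by STAT and IRF factors, and NF-kappaB dimers switch on their own inhibitors along with inflammatory and survival genes. ATF4 drives genes of amino acid supply when amino acids are short or translation initiation is restrained.

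Promoter sequence is shown for genes of these 4 programs. Most of their members were higher in the knockout, except for ATF4 targets, of which more were lower than higher. Each line gives the 250 bases before the RefSeq start of the gene on GRCh38.p14, 5′ to 3′ on the gene's own strand, with capitals for the bases that match the motif searched. Motifs were searched on both strands of the 250 bases before and 50 after the start.
IFITM3 (shared reads) (chr11:320861-321110, minus strand): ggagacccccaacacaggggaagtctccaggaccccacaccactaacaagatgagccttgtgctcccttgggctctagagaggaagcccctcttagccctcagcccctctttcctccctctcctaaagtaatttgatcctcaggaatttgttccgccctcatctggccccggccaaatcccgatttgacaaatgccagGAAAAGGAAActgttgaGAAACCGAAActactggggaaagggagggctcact
IFIT3 (shared reads) (chr10:89327747-89327996, plus strand): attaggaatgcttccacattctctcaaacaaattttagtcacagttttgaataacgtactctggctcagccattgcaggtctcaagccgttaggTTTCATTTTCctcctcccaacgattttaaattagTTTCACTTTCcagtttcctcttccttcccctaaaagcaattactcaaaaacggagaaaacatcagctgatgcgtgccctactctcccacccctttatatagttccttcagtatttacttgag
TYMS (chr18:657403-657652, plus strand): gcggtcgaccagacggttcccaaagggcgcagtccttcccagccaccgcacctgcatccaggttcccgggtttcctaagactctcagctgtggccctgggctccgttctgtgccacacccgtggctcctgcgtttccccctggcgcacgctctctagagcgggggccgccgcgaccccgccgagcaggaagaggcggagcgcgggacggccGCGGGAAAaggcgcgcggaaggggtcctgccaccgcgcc
PCNA (chr20:5126623-5126872, minus strand): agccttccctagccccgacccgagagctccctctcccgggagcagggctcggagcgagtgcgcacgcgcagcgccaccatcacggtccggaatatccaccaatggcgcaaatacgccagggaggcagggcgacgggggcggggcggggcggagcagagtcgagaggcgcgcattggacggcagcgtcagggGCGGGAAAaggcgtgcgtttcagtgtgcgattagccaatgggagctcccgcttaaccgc
MKI67 (chr10:128126424-128126673, minus strand): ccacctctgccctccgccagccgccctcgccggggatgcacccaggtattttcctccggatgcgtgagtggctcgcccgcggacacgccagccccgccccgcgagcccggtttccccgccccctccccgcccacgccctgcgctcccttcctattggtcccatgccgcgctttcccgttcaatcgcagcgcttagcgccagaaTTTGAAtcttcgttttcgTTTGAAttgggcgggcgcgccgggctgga
MTHFD1L (chr6:150866236-150866485, plus strand): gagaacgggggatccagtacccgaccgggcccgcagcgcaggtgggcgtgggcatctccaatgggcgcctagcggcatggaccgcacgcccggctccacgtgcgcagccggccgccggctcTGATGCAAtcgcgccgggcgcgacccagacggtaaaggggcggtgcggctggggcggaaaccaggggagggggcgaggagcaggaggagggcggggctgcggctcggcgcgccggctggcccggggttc

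IFITM3 and IFIT3 each hold 2 matches to the interferon-stimulated response element (GAAA, any 2 bases, GAAA), the nearer ending 25 and 112 bases before the start. TYMS and PCNA each hold 1 match to an E2F site (TTTNNCGC), which reads GCGGGAAA on the strand shown and ends 31 and 51 bases before the start. MKI67 holds 2 matches to the cell cycle genes homology region (TTTGAA), the nearer 23 bases before the start, and MTHFD1L holds 1 match to the ATF4 element (TGATGNAA) 121 bases before it. The same rule selected SPC25 and SLC7A1, whose promoters are not printed because a match lies across or after the start. The interferon element was found in 28 of 42 matched interferon-stimulated promoters (66.7%) and in 3.65% of all 27305 RefSeq promoters. The E2F site was in 22 of 43 promoters of DNA replication genes (51.2%, against 6.90% of all) and the homology region in 35 of 51 of mitotic genes (68.6%, against 15.4%). The ATF4 element was in 7 of 32 promoters of its list (21.9%, against 3.67%). Among the 10647 tested genes with a matched promoter the shares were 2.64%, 10.7%, 9.51% and 1.57%, in the same order of motifs. No motif contains another. These shares are a description of sequence, not of binding.

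The 8 libraries held 10025310 to 11963093 reads assigned to features, so 1 CPM stands for about 10 to 12 reads. The first principal component of these libraries carried 71.3% of the variance and separated the states (23.4 to 24.2 for FAH knockout vehicle, -24.4 to -22.7 for control abemaciclib). The second carried 6.99% and set control abemaciclib replicate 1 (16.7) apart from the other 7 libraries (-9.87 to 2.81). Every luminal marker of the 10 checked was present in both states, at a summed 13090 to 13480 CPM in FAH knockout vehicle and 11240 to 11680 CPM in control abemaciclib. Endothelial markers summed to at most 0.289 CPM in either state, and leukocyte markers to 11.2 to 12.2 CPM in the knockout and 9.01 to 12 CPM in the drug-treated state. Basal and mesenchymal markers were also low, at 54.4 to 57.1 and 84.1 to 91.9 CPM against 52.6 to 57.5 and 93.1 to 105 CPM. CPM are shares of a total, and the totals were made up differently. Mitochondrially encoded mRNAs took 8.46 ± 0.0512% of the reads in FAH knockout vehicle and 10.6 ± 0.316% in control abemaciclib (SD, n = 4), and the 50 most abundant features took 26.5 ± 0.0899% and 30.5 ± 0.361%. The median difference of all tested genes was 0.12 on the log2 scale and not 0. Differences below are therefore read against 0.12, and directions that turn when this shift is removed are named where they occur.

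FAH (ENSG00000103876, chromosome 15, 80152490 to 80186946, plus strand, GRCh38), the targeted gene, was measured at 6.77, 6.53, 6.27 and 7.02 CPM in the 4 knockout libraries and at 23.4, 24.1, 25.8 and 22.6 CPM in the 4 libraries with the control guide and abemaciclib. The groups did not overlap, and the knockout mean was 27.7% of the mean in drug-treated control cells. All differences here are on the log2(CPM + 1) scale, on which low genes appear to change less than they do, and for FAH it was -1.71 (SE 0.079, limma adjusted p = 1.2e-18). The exact two-sided permutation test gave p = 0.0286, the smallest possible with 70 assignments of 4 against 4 libraries. In the same fit FAH lay -1.84 from control vehicle in the knockout and -0.14 in the drug-treated cells, where the test was not passed (limma adjusted p = 0.144).

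Of the 15665 tested genes 7941 (50.7%) were called different between the states at a limma adjusted p under 0.05. There were 6037 higher in FAH knockout vehicle (38.5%) and 1904 lower (12.2%). With the libraries rescaled by the median of ratios, which removes the shift, the split was 3495 higher (22.3%) and 3626 lower (23.1%), and with quantile normalization 3415 (21.8%) and 3761 (24.0%). Higher calls were thus 76.0% of the calls with CPM as deposited and 49.1% and 47.6% with these scalings. Differences of at least 2-fold were fewer and leaned to the knockout side, with 271 genes higher (1.73%) and 71 lower (0.453%). At the other end, 4065 genes (25.9%) had a 95% interval of the difference within 1.2-fold in either direction. Libraries of the 2 states did not overlap for 5095 genes that were higher (32.5%) and 1585 that were lower (10.1%).

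The 10 largest differences toward the knockout among protein-coding genes of at least 5 CPM were in genes known from dividing cells. AURKB (ENSG00000178999, chromosome 17, 8204733 to 8210600, minus strand), the kinase of the chromosomal passenger complex, was measured at 69.8, 61.8, 65.3 and 64.2 CPM in FAH knockout vehicle and at 7.66, 4.99, 7.48 and 5.49 CPM in control abemaciclib. The lowest knockout library lay far above the highest drug-treated one, and the difference of 3.18 (SE 0.0896, limma adjusted p = 1.4e-24) was the largest of all genes named here. KIF20A, a kinesin of cytokinesis, followed with 3.08, then CCNA2, cyclin A2, with 2.73, and CDCA3 with 2.73. RRM2 (shared reads), the small subunit of ribonucleotide reductase, differed by 2.72, MKI67, the gene of the Ki-67 proliferation antigen, by 2.71, SPC25 (shared reads) of the outer kinetochore by 2.69, the kinase PLK1 by 2.66, the transcription factor MYBL2 by 2.64 and the chromatin protein HMGB2 by 2.62.

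**Figure D1:**
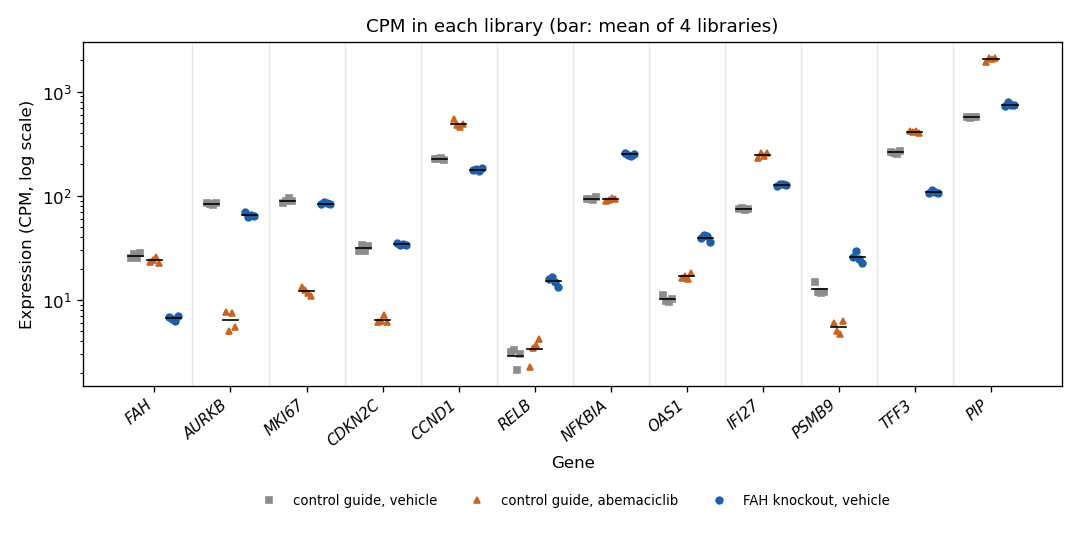
CPM of 12 genes in each library on a log axis, with 4 points and a mean bar for control vehicle (grey squares), control abemaciclib (orange triangles) and FAH knockout vehicle (blue circles). AURKB, MKI67 and CDKN2C stand apart in the drug-treated cells, RELB and NFKBIA in the knockout cells, and CCND1, TFF3 and PSMB9 lie on opposite sides of control vehicle in the 2 states.

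The drug acts on the cyclin D, CDK4/6 and RB axis, of which 25 of 34 members were higher in the knockout and 1 was lower, with a median difference of 0.42 (38.5% and 12.2% of all tested genes). The single lower member was CCND1 (ENSG00000110092, chromosome 11, 69641087 to 69654474, plus strand), cyclin D1, which pairs with CDK4 and CDK6. CCND1 was measured at 179, 182, 171 and 183 CPM in FAH knockout vehicle and 542, 477, 455 and 485 CPM in control abemaciclib, against 226 ± 5.45 in control vehicle (SD, n = 4). It lay below control vehicle in the knockout (-0.34) and above it with the drug (1.11), and the states differed by -1.45 (SE 0.0417, limma adjusted p = 2.5e-24).

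CDKN2C (ENSG00000123080, chromosome 1, 50960745 to 50974633, plus strand), which encodes the CDK4/6 inhibitor p18, was measured at 35.5, 34, 34.4 and 33.6 CPM in the knockout and 6.17, 6.31, 7.14 and 6.17 CPM in drug-treated cells. All knockout libraries were more than 4 times any drug-treated library, and the difference was 2.25 (SE 0.0723, limma adjusted p = 5.6e-23). The level in control vehicle was 31.4 ± 2.36 CPM (SD, n = 4), so that the knockout lay 0.13 from it (limma adjusted p = 0.161) and the drug-treated cells -2.12. E2F8 (1.95) and E2F7 (1.90), repressors that are themselves E2F targets, the activator E2F1 (1.13) and CCNE2, cyclin E2 (1.85), were higher in the knockout too. The kinase CDK2 differed by 0.83, RB1 by 0.33 and CDK4 (shared reads) by 0.30. CDKN1A, which encodes the CDK inhibitor p21, was measured at 44, 44.2, 43.6 and 43.4 CPM in the knockout and 17.6, 18.7, 16.2 and 18.9 CPM with the drug (1.25, limma adjusted p = 1.4e-18). CDK6 overlapped between the states, at 6.44, 4.99, 5.82 and 5.45 CPM in the knockout and 7.1, 6.66, 6.54 and 5.68 CPM with the drug, and its difference of -0.17 (95% interval -0.38 to 0.04) did not pass the test (limma adjusted p = 0.175). With the median-of-ratios scaling it was -0.29 and was called lower in the knockout (limma adjusted p = 0.0204), as with quantile normalization (-0.30, limma adjusted p = 0.0133). Both states lay above control vehicle in CDK6, by 0.70 and 0.87.

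Every gene of the replication and mitosis lists was higher in FAH knockout vehicle than in control abemaciclib. For mitosis this was 58 of 58 with a median of 1.75 and 50 past 2-fold, and it held for all 58 under both other scalings. For replication it was 51 of 51 with a median of 0.81, and 48 under both other scalings, with none lower. TYMS, thymidylate synthase, was measured at 89.3, 73.8, 78 and 80.7 CPM in the knockout and 13.4, 15.1, 14.4 and 15.6 CPM with the drug. The 2 sets of libraries lay far apart (2.38, limma adjusted p = 3.7e-25). TK1 (1.83), a thymidine kinase, and MCM10 (1.81), an origin firing factor, were also higher. RNA from bulk cells does not tell fewer dividing cells from less of these mRNAs per cell.

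Repair by homologous recombination and the histones made in S phase were also higher in the knockout than with the drug. Of 24 recombination genes 19 were higher and 2 lower (median 0.60), beside 38.5% and 12.2% of all tested genes. The nuclease EXO1 differed by 1.67. The exceptions were FANCM (-0.26), a DNA translocase, and RBBP8 (-0.16), which starts end resection. Against control vehicle 11 recombination genes were lower and 1 higher in the knockout (median -0.26). With the drug 22 were lower and 1 higher than control vehicle (median -0.81). Of all tested genes 13.3% and 31.6% were lower than control vehicle in these states. Of 21 tested histone genes of 49 listed, 17 were higher than with the drug and 0 lower (median 0.72). Against control vehicle 7 were higher and 3 lower in the knockout (median 0.09). With the drug 0 were higher and 15 lower than control vehicle (median -0.51). Most histone mRNAs are known to lack a poly(A) tail, and their levels here were low. Between the states 7 were higher in the knockout when at least 5 CPM were required. H4C3, the most abundant histone among those named, was measured at 155, 163, 188 and 181 CPM in the knockout and 53.9, 67.5, 54 and 58.5 CPM with the drug (1.54, limma adjusted p = 2.0e-15), both under the 345 ± 28.2 CPM of control vehicle (SD, n = 4).

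Each state was also set against untreated control cells. Against control vehicle the median of the mitosis list was -0.27 in FAH knockout vehicle (38 of 58 lower, none higher) and -2.09 in control abemaciclib (58 of 58 lower). The replication medians were -0.13 (19 of 51 lower) and -0.92 (51 of 51 lower). Among all tested genes 13.3% were lower in the knockout and 31.6% with the drug. For the cyclin D, CDK4/6 and RB axis the medians were 0.01 and -0.45. Both differences share the control vehicle libraries, so they are given side by side and not set against each other.

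**Figure D2:**
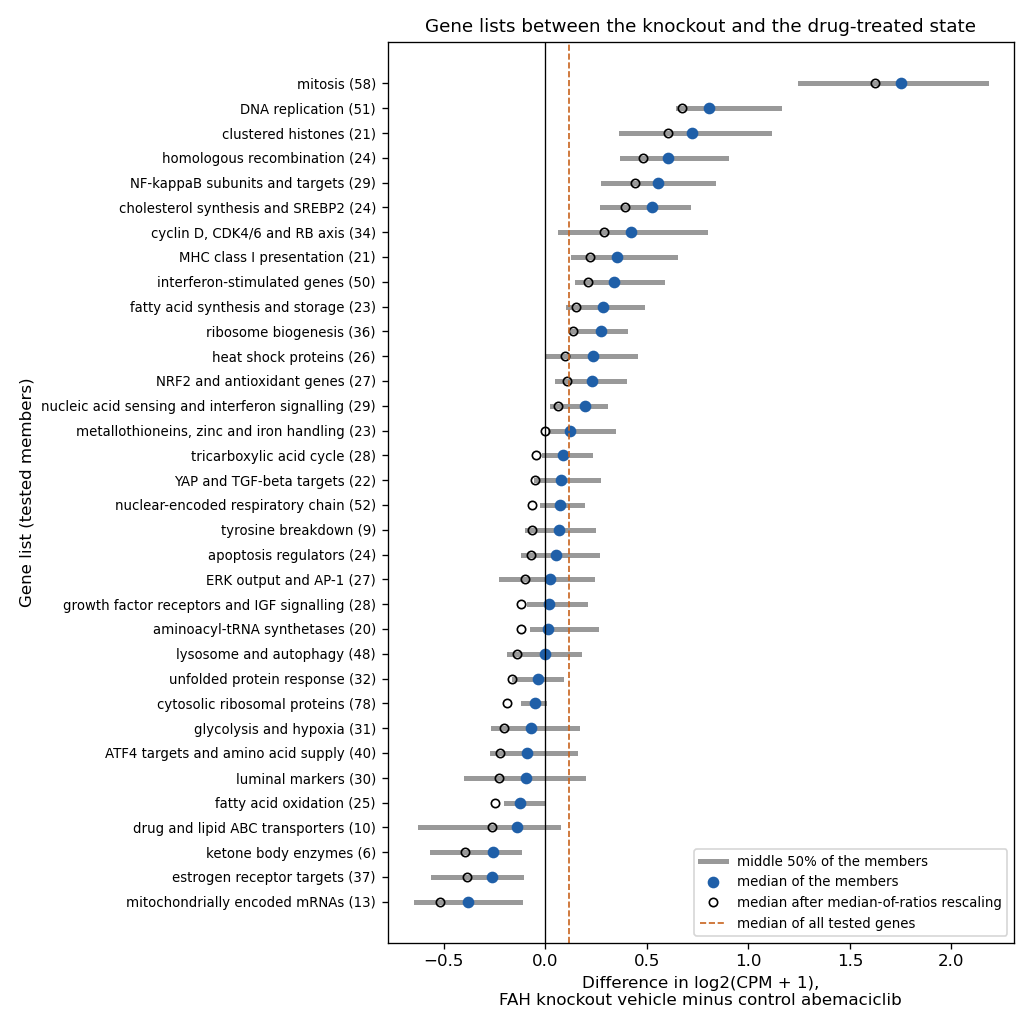
Median difference in log2(CPM + 1) between FAH knockout vehicle and control abemaciclib for each gene list shown (blue points, with a grey bar over the middle 50% of the members), the same after median-of-ratios rescaling (open circles) and the median of all tested genes (dashed line, 0.12). Mitosis (1.75) and DNA replication (0.81) lie farthest to the right and mitochondrially encoded mRNAs (-0.38) farthest to the left, while the lists from the aminoacyl-tRNA synthetases up to the tricarboxylic acid cycle cross 0 with the rescaling.

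Interferon-stimulated genes were above control vehicle in both states and further above it in the knockout. Of 50 tested members 35 were higher in FAH knockout vehicle than in control abemaciclib and 4 lower, with a median of 0.34. Among all tested genes 38.5% were higher and 12.2% lower. After the median-of-ratios scaling 28 were higher and 4 lower, and after quantile normalization 25 and 6, beside 22.3% and 21.8% higher of all genes. Against control vehicle 48 members were higher and 0 lower in the knockout (median 0.92), and 41 higher and 1 lower with the drug (median 0.56). Of all tested genes 25.2% were higher and 13.3% lower than control vehicle in the knockout, and 20.2% and 31.6% with the drug.

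OAS1 (ENSG00000089127, chromosome 12, 112906777 to 112933222, plus strand), which makes the second messenger that activates RNase L, was measured at 39.3, 41.6, 41.3 and 36.3 CPM in the knockout, 16.2, 16.9, 15.8 and 18.3 CPM with the drug and 11, 9.82, 9.47 and 10.3 CPM in control vehicle. The 3 groups did not overlap and followed each other in that order, and the states differed by 1.19 (SE 0.0628, limma adjusted p = 4.1e-17). IFITM3, a membrane protein that restricts virus entry and whose 2 response elements are shown above, was measured at 52, 58.8, 54.2 and 62.1 CPM in the knockout and 21.3, 25.3, 25.7 and 25.6 CPM with the drug (1.18). IFIT3, which binds viral RNA together with other IFIT proteins, was measured at 36.9, 40.9, 39.1 and 37.7 and 17.7, 17.3, 14.8 and 17.5 CPM (1.16), and OAS3 (shared reads) differed by 0.88. IFI27 (ENSG00000165949, chromosome 14, 94104836 to 94116698, plus strand) ran the other way. Its levels were 125, 131, 129 and 127 CPM in the knockout and 233, 257, 244 and 256 CPM with the drug, both above the 74.8 ± 1.03 CPM of control vehicle (SD, n = 4), and the states differed by -0.94 (limma adjusted p = 9.7e-21). SLFN5, a member of the Schlafen family, was likewise lower in the knockout (-0.73) and lay 0.13 from control vehicle there (limma adjusted p = 0.228) and 0.86 with the drug.

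Upstream of these genes the sensors and signalling components differed by less. Of 29 members 14 were higher in the knockout and 2 lower (median 0.20), beside 38.5% and 12.2% of all tested genes, and after the median-of-ratios scaling 8 and 5 (median 0.06), beside 22.3% and 23.1%. Without single libraries the lower count was 1 to 2. IRF1, an interferon regulatory factor, was the largest gain at 11.7, 11, 11.7 and 11.1 against 4.95, 4.01, 3.23 and 3.6 CPM (1.33, limma adjusted p = 4.0e-13). In drug-treated cells IRF1 lay 0.05 from control vehicle, where the test was not passed (limma adjusted p = 0.72). The RNA sensor IFIH1 (0.38), the nucleotide hydrolase SAMHD1 (0.50) and the RNA-activated kinase EIF2AK2 (shared reads) (0.46) were higher too. JAK1 (shared reads) (ENSG00000162434, chromosome 1, 64833229 to 64966504, minus strand), a kinase of the interferon receptors, was lower in the knockout, at 77.7, 71.4, 78.5 and 72.8 CPM against 181, 157, 147 and 138 CPM with the drug. No library of one state reached the other (-1.04, limma adjusted p = 1.0e-17), and JAK1 lay -0.64 from control vehicle in the knockout and 0.40 with the drug. JAK2 overlapped between the states and was called lower (-0.33, limma adjusted p = 0.0302), a call that was lost without any of 4 single libraries, FAH knockout vehicle replicates 1 or 4 or control abemaciclib replicates 1 or 3 (limma adjusted p = 0.0694 to 0.117).

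NF-kappaB subunits and targets were higher in the knockout than with the drug. Of 29 tested members of 42 listed 25 were higher in FAH knockout vehicle and 1 lower, with a median of 0.55. Among all tested genes 38.5% were higher and 12.2% lower. After both other scalings 20 members were higher and 2 lower. Against control vehicle 25 were higher and 0 lower in the knockout (median 0.55), and 7 higher and 4 lower with the drug (median 0.02), where 25.2% and 20.2% of all genes were higher. RELB (ENSG00000104856, chromosome 19, 45001430 to 45038198, plus strand), the subunit of the alternative pathway, was measured at 15.7, 16.6, 14.8 and 13.4 CPM in the knockout, 2.24, 3.42, 3.65 and 4.24 CPM with the drug and 3.13, 3.27, 2.12 and 3.02 CPM in control vehicle. The drug-treated and control vehicle libraries overlapped, the knockout libraries were above all of them, and the states differed by 1.89 (SE 0.117, limma adjusted p = 3.0e-15).

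NFKBIA (ENSG00000100906, chromosome 14, 35401511 to 35404749, minus strand), the inhibitor IkappaB alpha and a direct target, was measured at 258, 244, 241 and 254 CPM in the knockout and 88.8, 91, 96.1 and 92.7 CPM with the drug, against 93.3 ± 2.1 in control vehicle (SD, n = 4). The difference between the states was 1.43 (SE 0.0342, limma adjusted p = 1.6e-26), and the drug-treated cells lay -0.02 from control vehicle (limma adjusted p = 0.701). BIRC3, an inhibitor of apoptosis and ubiquitin ligase, differed by 1.22, its partner TRAF2 by 1.05 and the inhibitor NFKBIE by 1.02. The chemokine CCL5 (shared reads) was lower in the knockout (-0.38), at 2.3, 2.47, 3.18 and 2.17 against 4.25, 3.68, 3.06 and 3.37 CPM. The groups overlapped, and 1 CPM at these levels is about 10 to 12 reads.

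Genes of antigen presentation by MHC class I leaned to the knockout, and PSMB9 differed most among those named here. Of 21 tested genes 14 were higher in the knockout and 3 lower (median 0.35), beside 38.5% and 12.2% of all tested genes. After the median-of-ratios scaling 11 were higher and 4 lower, beside 22.3% and 23.1%. PSMB9 (ENSG00000240065, chromosome 6, 32844136 to 32859585, plus strand), a catalytic subunit of the immunoproteasome, was measured at 25.8, 29.4, 24.8 and 22.8 CPM in the knockout and 5.98, 4.99, 4.67 and 6.26 CPM with the drug. The control vehicle libraries, at 14.9, 11.9, 11.7 and 11.8 CPM, lay between them without overlap. PSMB9 was thus above control vehicle in the knockout (0.98) and below it with the drug (-1.07), and the states differed by 2.05 (SE 0.0916, limma adjusted p = 5.0e-19). The other immunoproteasome subunits PSMB8 (0.80) and PSMB10 (0.64), the peptide trimming enzyme ERAP2 (0.85) and the peptide transporter subunit TAP2 (shared reads) (0.70) were higher in the knockout. The chaperone CALR (shared reads) (-0.22) and the nonclassical HLA-E (shared reads) (-0.13), whose libraries overlapped, were lower.

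Estrogen receptor targets lay on the drug's side. Of 37 tested members 24 were lower in FAH knockout vehicle, beside 12.2% of all genes, and 3 were higher, with a median of -0.26. After the median-of-ratios scaling 29 were lower, beside 23.1% of all genes, and 1 higher. TFF3 (ENSG00000160180, chromosome 21, 42311667 to 42315651, minus strand), a secreted trefoil peptide, was measured at 107, 113, 108 and 106 CPM in the knockout and 416, 413, 419 and 404 CPM with the drug. Control vehicle lay between them at 264, 258, 251 and 270.3 CPM, and the states differed by -1.92 (SE 0.0322, limma adjusted p = 1.3e-30). PDZK1, a scaffold protein of membrane transporters, differed by -1.16, STC2, a secreted glycoprotein, by -0.91 and IGFBP5 (shared reads), a binding protein of insulin-like growth factors, by -0.84. The receptor gene ESR1 was measured at 79.6, 71.9, 76 and 76.8 CPM in the knockout and 105, 102, 96.9 and 94.1 CPM with the drug (-0.38, limma adjusted p = 3.7e-09), and PGR (shared reads), the progesterone receptor, differed by -0.68. ESR1 lay -0.35 from control vehicle in the knockout and 0.03 with the drug. SUSD3, a membrane protein, was the largest exception, at 43.7, 44.5, 42.7 and 43.2 against 20.3, 23.8, 21.1 and 22.7 CPM (0.96, limma adjusted p = 2.4e-16).

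By count of calls luminal markers leaned to the drug's side, with members on both sides. Of 30 tested 8 were higher in the knockout (26.7%) and 15 lower (50%), with a median of -0.09. Among all tested genes 38.5% were higher and 12.2% lower. PIP (ENSG00000159763, chromosome 7, 143132077 to 143139746, plus strand), prolactin-induced protein, a secreted protein of apocrine cells, was measured at 730.3, 793, 747 and 737 CPM in the knockout and 1931, 2085, 2057 and 2105 CPM with the drug, and at 569 ± 7.84 CPM in control vehicle (SD, n = 4). Both states lay above control vehicle (0.40 and 1.84), the drug-treated one far more (-1.44 between the states, limma adjusted p = 2.6e-28). AZGP1, another secreted apocrine protein, was higher in the knockout, at 17.9, 17.1, 19.8 and 17.9 against 9.67, 8.85, 9.26 and 9.83 CPM (0.88). TFAP2B, an AP-2 transcription factor, was measured at 5.27, 5.19, 5.37 and 4.99 CPM in the knockout and 2.52, 1.14, 1.27 and 1.06 CPM with the drug (1.35), where control abemaciclib replicate 1 stood above the other 3 libraries. The luminal factor GATA3 differed by -0.31 and lay -0.31 from control vehicle in the knockout and -0.00 with the drug. Of the 10 luminal markers checked above, KRT8 and KRT18 had higher means in the knockout, at 5050 and 3120 against 3360 and 1860 CPM. EPCAM was higher as well (213 against 174 CPM). The means of KRT19 (2260 against 2650 CPM), CDH1, FOXA1, ESR1, PGR, TFF1 and GATA3 were lower. KRT15 (ENSG00000171346, chromosome 17, 41513743 to 41522529, minus strand), a keratin that is on no list, was measured at 21.8, 20.5, 20.4 and 22 CPM in the knockout and 72.6, 68.4, 67.8 and 67.8 CPM with the drug (-1.66), and the knockout lay 0.11 from control vehicle (limma adjusted p = 0.104).

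Lipid synthesis was higher in the knockout and fatty acid oxidation leaned to the drug. Of 24 cholesterol and SREBP2 genes 21 were higher in FAH knockout vehicle and 1 lower (median 0.53), beside 38.5% and 12.2% of all tested genes. After both other scalings 17 were higher and 2 lower. Of all tested genes 22.3% were then higher and 23.1% lower with the median of ratios, and 21.8% and 24.0% with quantile normalization. INSIG1 (ENSG00000186480, chromosome 7, 155297776 to 155310235, plus strand), the sterol-regulated anchor that retains SREBP in the endoplasmic reticulum, was measured at 55.3, 55.8, 59.2 and 60.2 CPM in the knockout, 23.9, 24.4, 23.5 and 25.1 CPM with the drug and 41.8, 42.5, 40.6 and 45.7 CPM in control vehicle. The 3 groups did not overlap, with control vehicle in the middle (1.22 between the states, SE 0.0514, limma adjusted p = 1.0e-19). ACAT2, which makes acetoacetyl-CoA in the cytosol, was higher in the knockout than with the drug (1.08), with both states below control vehicle (-0.23 and -1.31). The enzymes EBP (0.82), MVK (0.78) and IDI1 (0.75) were higher, and TM7SF2 (-0.16), a sterol reductase, was lower. Of 23 genes of fatty acid synthesis and storage 17 were higher and 0 lower (median 0.28), beside the same 38.5% and 12.2%. After the median-of-ratios scaling 12 were higher and 5 lower, beside 22.3% and 23.1% of all tested genes. FASN (shared reads), fatty acid synthase, was measured at 384, 384, 364 and 379 CPM in the knockout and 244, 270.2, 244 and 239.5 CPM with the drug (0.60). The triglyceride enzyme DGAT2 (1.23) and the desaturase FADS1 (shared reads) (0.95) differed more.

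Of 25 genes of fatty acid oxidation 2 were higher in the knockout and 10 lower (median -0.13), beside 38.5% and 12.2% of all tested genes. After both other scalings 19 were lower, beside 23.1% and 24.0% of all tested genes. The acyl-CoA dehydrogenase ACADVL (-0.45) and the carnitine carrier SLC25A20 (-0.41) were lower in the knockout, while HADH (0.37) and ECI1 (0.33) were higher. Without control abemaciclib replicate 1 the higher count was 4. Among the 6 ketone body enzymes, a use of the acetoacetate that FAH releases, 4 were lower and 0 higher, and after both other scalings all 6 were lower. AACS, which activates acetoacetate for lipid synthesis, differed by -0.37 and was above control vehicle in both states (0.28 and 0.65). ACAT1, the mitochondrial thiolase, differed by -0.15.

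Of the 9 tested genes on the tyrosine list, FAH included, 4 were higher and 2 lower, beside 38.5% and 12.2% of all tested genes. After both other scalings 2 were higher and 4 lower. Of all tested genes 22.3% were then higher and 23.1% lower with the median of ratios, and 21.8% and 24.0% with quantile normalization. The median of the list turned from 0.07 to -0.07 after the median-of-ratios scaling. GOT1, a cytosolic aminotransferase, was measured at 75.2, 74.2, 69.5 and 74.8 CPM in the knockout and 50.2, 55.8, 54 and 51.4 CPM with the drug (0.47, limma adjusted p = 7.2e-11). QDPR, which regenerates the cofactor of phenylalanine hydroxylase, was the other lower gene besides FAH, at 20.6, 22, 20 and 18.3 against 30.4, 29.4, 28.9 and 28 CPM (-0.51). PCBD2 (shared reads) differed by 0.33, and PCBD1 by 0.23, a call lost after the median-of-ratios scaling (0.10, limma adjusted p = 0.169). The latter 2 act in the same cofactor cycle as QDPR.

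ATF4 targets were below control vehicle in both states, and between the states more were lower in the knockout than higher. Of 40 members 11 were higher in FAH knockout vehicle (27.5%) and 18 lower (45%), with a median of -0.09. Among all tested genes 38.5% were higher and 12.2% lower. Against control vehicle 31 were lower in the knockout (median -0.53) and 27 with the drug (median -0.36), where 13.3% and 31.6% of all genes were lower. SLC7A5, the large neutral amino acid transporter, was measured at 118, 128, 109 and 115 CPM in the knockout and 84.6, 89.9, 83.7 and 83.6 CPM with the drug, both under the 230.5 ± 2.91 CPM of control vehicle (SD, n = 4), and the states differed by 0.45. MTHFD1L, a mitochondrial folate enzyme whose ATF4 element is shown above, was measured at 15.8, 14.7, 14.9 and 18.1 CPM in the knockout and 10.9, 9.55, 10.7 and 10.2 CPM with the drug (0.57, limma adjusted p = 1.2e-07). ALDH1L2, a second mitochondrial folate enzyme, ran the other way at 4.01, 4.19, 2.69 and 2.68 against 7.66, 7.8, 5.69 and 6.84 CPM (-0.88). The stress factor DDIT3 (-0.64) and the mTORC1 inhibitor DDIT4 (-0.48) were lower in the knockout. They lay above control vehicle with the drug (0.52 and 0.61), while the knockout lay -0.11 and 0.13 from it and did not pass the test (limma adjusted p = 0.11 and 0.0506).

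The 20 cytosolic aminoacyl-tRNA synthetases were near each other in the states, and 13 had a 95% interval within 1.2-fold, beside 25.9% of all genes. Of these synthetases 6 were higher and 3 lower (median 0.01), beside 38.5% and 12.2% of all tested genes. The counts were 5 and 11 after both other scalings, where the median was -0.12. Of all tested genes 22.3% were then higher and 23.1% lower with the median of ratios, and 21.8% and 24.0% with quantile normalization. FARSA, a subunit of the phenylalanine enzyme, was the most different synthetase at 33, 40.5, 40 and 34.4 against 28.6, 29.7, 28.6 and 29.9 CPM (0.32). The serine enzyme SARS1 was called lower (-0.15, limma adjusted p = 0.0104), but not without control abemaciclib replicate 1 (limma adjusted p = 0.0610).

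Heat shock genes leaned to the knockout, and genes of the unfolded protein response leaned to the drug's side. Of 26 heat shock genes 16 were higher in the knockout and 4 lower (median 0.23), beside 38.5% and 12.2% of all tested genes. After the median-of-ratios scaling 11 were higher and 8 lower, beside 22.3% and 23.1%. HSP90AA1 (shared reads) was measured at 1583, 1664, 1536 and 1475 CPM in the knockout and 1104, 1004, 1002 and 980.1 CPM with the drug (0.61), and the co-chaperones DNAJA1 (shared reads) (0.60) and STIP1 (shared reads) (0.48) were higher too. The small heat shock protein HSPB8 was lower, at 21.6, 21.1, 19.3 and 21.4 against 36.6, 32.8, 38 and 35.6 CPM (-0.75). Of 32 genes of the unfolded protein response 6 were higher (18.8%) and 12 lower (37.5%), beside 38.5% and 12.2% of all tested genes. The median was -0.04, and -0.17 after the median-of-ratios scaling. XBP1, its transcription factor, was measured at 1724, 1734, 1701 and 1715 CPM in the knockout and 2134, 2353, 2284 and 2279 CPM with the drug (-0.40). HERPUD1 (-0.53) and DNAJB9 (-0.50) were also lower in the knockout, and SDF2L1 (0.52) was higher.

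The machinery of translation differed little in size. Of 78 cytosolic ribosomal protein genes 69 had a 95% interval within 1.2-fold, beside 25.9% of all tested genes. The calls were 6 higher and 32 lower with a median of -0.05, 2 and 69 after the median-of-ratios scaling (-0.19), and 18 and 18 after quantile normalization (0.01), so the list has no direction that holds under all 3. Of all tested genes 38.5% were higher and 12.2% lower as deposited. With the median of ratios 22.3% and 23.1% of all tested genes were, and with quantile normalization 21.8% and 24.0%. Together the ribosomal protein genes took 15.1 ± 0.129% of the reads in FAH knockout vehicle, 15.7 ± 0.463% in control abemaciclib and 17.5 ± 0.224% in control vehicle (SD, n = 4). RPL3 (shared reads) stood out at 1580, 1588, 1607 and 1644 CPM in the knockout and 2126, 2207, 2177 and 2109 CPM with the drug (-0.42, limma adjusted p = 1.0e-15). Ribosome biogenesis differed more, with 26 of 36 genes higher in the knockout and 0 lower (median 0.27, beside 0.12 for all tested genes). After the median-of-ratios scaling 17 were higher and 1 lower. FBL, the methyltransferase of ribosomal RNA, was measured at 235, 221, 224 and 227 CPM in the knockout and 134, 147, 141 and 143 CPM with the drug (0.68). The knockout lay -0.09 from control vehicle and the drug-treated cells -0.77.

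Mitochondrially encoded mRNAs, which specify core subunits of the respiratory chain, were mostly lower in FAH knockout vehicle than in control abemaciclib. Of 13 genes 11 were lower and 1 higher (median -0.38), beside 12.2% and 38.5% of all tested genes. After quantile normalization 8 were lower and 5 higher, beside 24.0% and 21.8%. Against control vehicle 6 were higher and 4 lower in the knockout (median 0.15). With the drug 12 were higher and 1 lower than control vehicle (median 0.47). Of all tested genes 25.2% were higher and 13.3% lower than control vehicle in the knockout, and 20.2% and 31.6% with the drug. All 13 carry the mark of shared reads. MT-ND5 (shared reads), a subunit of complex I, was measured at 1341, 1351, 1443 and 1429 CPM in the knockout, 2816, 3074, 2806 and 2880 CPM with the drug and 2003, 2050, 2041 and 2186 CPM in control vehicle. The 3 groups did not overlap, with control vehicle in the middle (-1.06 between the states, SE 0.0336, limma adjusted p = 4.1e-23). MT-CO1 (shared reads) of complex IV was measured at 2853, 2897, 3151 and 2935 CPM in the knockout and 5384, 5391, 5379 and 5276 CPM with the drug (-0.86), and MT-ND4 (shared reads) differed by -0.80 and MT-ND4L (shared reads) by -0.64. The others were nearer, down to MT-CYB at -0.10 and MT-CO3 at -0.00, which was not called (limma adjusted p = 0.998). The mRNAs therefore did not shift by a common factor. MT-ND6 (shared reads), which alone among them is encoded on the light strand and lies opposite other mitochondrial transcripts, was the exception at 50.9, 66.4, 55.6 and 47.9 CPM in the knockout and 38.5, 29, 32.1 and 45.4 CPM with the drug (0.60, limma adjusted p = 3.1e-04). The strand setting of the counting is not given, and reads from opposite strands might not be told apart.

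**Figure D3:**
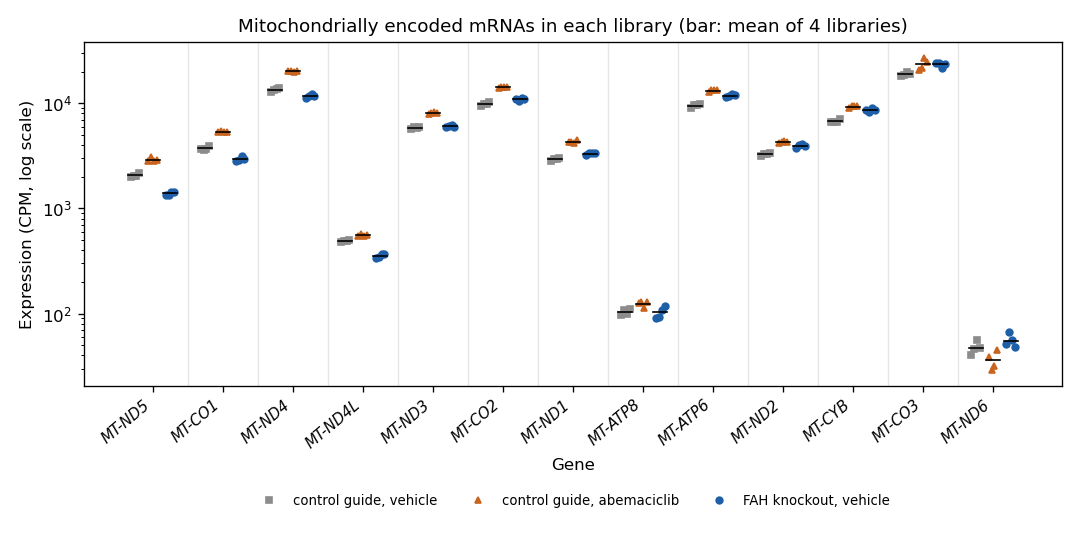
CPM of the 13 mitochondrially encoded mRNAs in each library on a log axis, ordered by their difference between the states, with symbols as in the plot of 12 genes and a mean bar over 4 libraries. Control abemaciclib lies above FAH knockout vehicle by most for MT-ND5, the groups meet at MT-CO3, and MT-ND6 has the opposite order.

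Nuclear-encoded subunits of the respiratory chain differed little. Of 52 genes 38 had a 95% interval within 1.2-fold, beside 25.9% of all tested genes. There were 22 higher in the knockout and 6 lower (median 0.07), shares near those of all tested genes (38.5% and 12.2%). These counts turned to 6 and 22 after the median-of-ratios scaling (median -0.06), beside 22.3% and 23.1% of all tested genes. CYC1, cytochrome c1 of complex III, was the most different, at 424, 452, 434 and 439 CPM in the knockout and 343, 337, 355 and 347 CPM with the drug (0.34). SDHC (-0.25) of complex II and NDUFV1 (-0.23) of complex I were lower. Of 28 genes of the tricarboxylic acid cycle 11 were higher and 4 lower, shares like those of all tested genes, and the median turned from 0.09 to -0.05 after the median-of-ratios scaling. The lower count fell to between 1 and 2 without any of FAH knockout vehicle replicates 1, 2 and 3 or control abemaciclib replicates 2 and 3. FH, fumarase, which uses the fumarate that FAH releases, was measured at 46.4, 45.6, 44.1 and 47.9 CPM in the knockout and 37.5, 37.1, 37.7 and 37.4 CPM with the drug (0.29, limma adjusted p = 9.2e-06). IDH3A (0.60) and DLAT (0.42) differed more.

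Redox and metal genes held some of the larger single differences. Of 27 NRF2 and antioxidant genes 19 were higher in the knockout and 4 lower (median 0.23), beside 38.5% and 12.2% of all tested genes. After the median-of-ratios scaling 11 were higher and 5 lower, beside 22.3% and 23.1%. NQO1, a quinone reductase, was measured at 265, 253, 263 and 263 CPM in the knockout and 169.7, 178, 182 and 169 CPM with the drug (0.58), and OSGIN1 (shared reads) ran the other way at 24.2, 24.6, 22.3 and 25.1 against 50, 49.7, 46.2 and 48.7 CPM (-0.99). MT2A (ENSG00000125148, chromosome 16, 56608199 to 56609497, plus strand), a metallothionein that binds zinc and copper, was measured at 128, 135, 130 and 127 CPM in the knockout, 41.9, 41.6, 43 and 44 CPM with the drug and 128, 129.7, 122 and 127 CPM in control vehicle. The knockout and control vehicle libraries overlapped and the drug-treated ones were far below both (1.59 between the states, SE 0.0395, limma adjusted p = 4.1e-26). MT1F (shared reads) (0.94) and MT1X (shared reads) (0.89) followed the same order. STEAP1, of the STEAP family, was measured at 19.2, 20.5, 18.8 and 19.4 CPM in the knockout and 7.01, 8.37, 6.71 and 7.32 CPM with the drug (1.30), above control vehicle in both (1.66 and 0.36). The transferrin receptor TFRC was lower in the knockout, at 549, 544, 549 and 527 against 828, 779.6, 735 and 711 CPM (-0.49).

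Of 48 lysosome and autophagy genes 29 were above control vehicle in the knockout and 35 with the drug, where 25.2% and 20.2% of all tested genes were. Between the states 12 were higher in the knockout and 14 lower, beside 38.5% and 12.2% of all tested genes. After the median-of-ratios scaling these were 5 and 27. WIPI1, which acts in autophagosome formation, was measured at 36.1, 39.9, 33.6 and 40.9 CPM in the knockout and 93.5, 91.6, 92.5 and 89.5 CPM with the drug (-1.27, limma adjusted p = 1.9e-20), and lay -0.38 from control vehicle in the knockout and 0.89 with the drug. OPTN (shared reads), an autophagy receptor, was higher in the knockout, at 127, 121, 120.3 and 118 against 67.7, 71.8, 65.3 and 64.9 CPM (0.84). Of 10 ABC transporters 5 were lower in the knockout and 1 higher, the lower ones led within that list of drug and lipid transporters by ABCC11 (-1.65) and ABCA12 (-1.41). ABCC11 was below control vehicle in the knockout (-1.11) and above it with the drug (0.54).

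Growth factor, ERK, YAP and apoptosis lists had medians near 0 whose sign turned with the scaling. Of 28 receptor and IGF genes 8 were higher in the knockout and 5 lower (2 and 11 after the median-of-ratios scaling), among them FGFR2 (0.39) on the higher side and IGF1R (-0.43) and IGFBP5 on the lower. The higher count was 5 without control abemaciclib replicate 2. Of 27 ERK and AP-1 genes 7 were higher and 7 lower. DUSP4 (shared reads), a phosphatase induced by ERK, was measured at 76.7, 77.8, 73.5 and 75.3 CPM in the knockout and 152, 134, 137 and 148 CPM with the drug (-0.90), and lay -1.08 from control vehicle in the knockout and -0.18 with the drug. JUN (-0.46) was lower in the knockout and above control vehicle in both states (0.49 and 0.96), as was the YAP target CCN1 (-0.75, with 0.43 and 1.18). Of 22 YAP and TGF-beta targets 9 were higher and 4 lower. Of 24 apoptosis regulators 8 were higher and 2 lower, shares near those of all tested genes (38.5% and 12.2%), and 4 were lower without control abemaciclib replicate 4. BAX, which opens the outer mitochondrial membrane, differed by 0.95. The death-promoting BCL2L11 was higher in the knockout, at 8.44, 8.08, 7.88 and 9.06 against 6.21, 4.29, 4.84 and 3.56 CPM (0.73), and the protective BCL2L1 was lower, at 77.5, 77.6, 76.5 and 75.7 against 97.5, 89.9, 91.2 and 90.9 CPM (-0.26). Glycolysis and hypoxia genes gave 9 higher and 13 lower of 31, with the lactate transporter SLC16A3 (-0.62) and the enolase ENO1 (0.33) at 1177, 1156, 1131 and 1162 against 894, 956, 924 and 898 CPM.

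The 10 largest differences toward the drug were in genes of many kinds. Beside FAH, TFF3, KRT15 and ABCC11 they were the transporter ABCC12 (-2.31), MATN3 (-2.30), the serpin SERPINI1 (-2.09), LRRC31 (-1.89), SIPA1 (-1.58) and CITED1 (shared reads) (-1.49). MATN3 (ENSG00000132031, chromosome 2, 19992111 to 20012694, minus strand), a matrix protein known from cartilage, was measured at 6.94, 7.78, 6.99 and 6.47 CPM in the knockout, 40.6, 36.4, 36.1 and 41.3 CPM with the drug and 20.3, 17.6, 16.6 and 15.7 CPM in control vehicle. It lay below control vehicle in the knockout (-1.20) and above it with the drug (1.10), and no groups overlapped. ABCC12 was measured at 2.51, 2.34, 1.43 and 2.22 against 15.1, 14.2, 14.1 and 14.1 CPM. CLU, a secreted chaperone chosen after its values were seen, was measured at 268, 316, 316 and 301 CPM in the knockout and 745, 798, 762 and 803 CPM with the drug (-1.37, limma adjusted p = 7.9e-25), with 282 ± 5.63 in control vehicle (SD, n = 4).

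Of 2420 tested long noncoding RNAs 783 were higher in the knockout (32.4%) and 184 lower (7.60%), both under the shares of all tested genes (38.5% and 12.2%). The following 4 were chosen after their values were seen. TMPO-AS1, which lies beside the cell cycle gene TMPO, was measured at 27.2, 27.9, 28.1 and 27.5 CPM in the knockout and 4.39, 5.08, 3.4 and 4.43 CPM with the drug (2.44, limma adjusted p = 3.4e-19). TYMSOS, antisense to TYMS, differed by 1.61. Reads of either cannot be told from those of the neighbouring gene if strand was not used. DSCAM-AS1, which is known from estrogen receptor positive breast cancer, was lower in the knockout, at 310.4, 306, 307 and 300.1 against 506, 496, 472 and 499 CPM (-0.69), and the small nucleolar RNA host gene SNHG8 differed by -0.68.

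**Figure D4:**
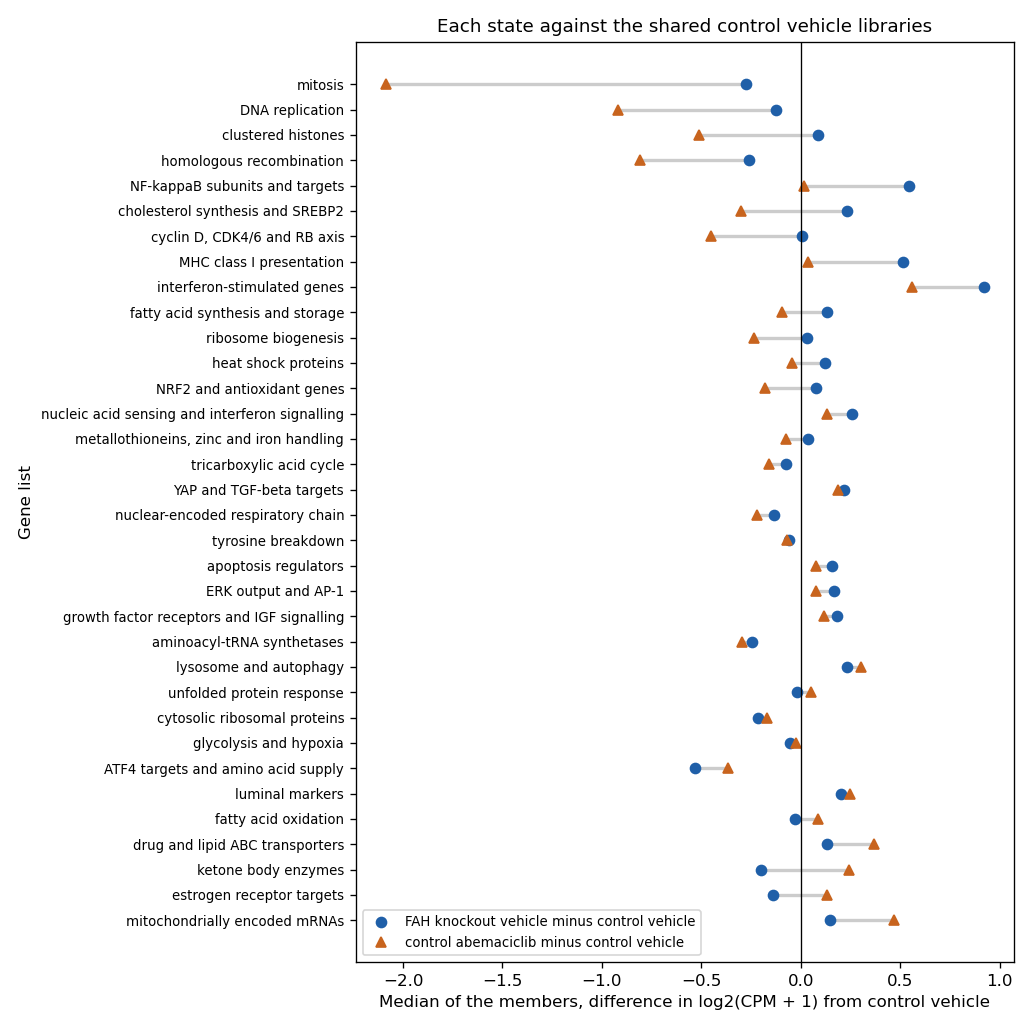
Median difference in log2(CPM + 1) from control vehicle over the members of each list, in FAH knockout vehicle (blue circles) and control abemaciclib (orange triangles), which share the control vehicle libraries. Mitosis lies at -0.27 and -2.09, NF-kappaB subunits and targets at 0.55 and 0.02, and mitochondrially encoded mRNAs at 0.15 and 0.47.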

How the data were processed

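RNA of T47D cells was sequenced in 16 libraries, 4 for each genotype and treatment, and the titles in the labels gave groups and replicate numbers. Per the labels' protocols, a commercial service extracted the RNA and made libraries by tagmentation of cDNA. The submitters' processing notes name STAR 2.7.11, SAMtools 1.22.1, MultiQC 1.32, featureCounts of Subread 2.1.1 and the build GRCh38. Which annotation release and strand setting were used, and how multimapping reads were handled, is not given in the sources used here. The authors deposited counts per 1000000 assigned reads (CPM) for 78986 features. Depth was read from the smallest step between values, 9915776 to 11963093 reads over the 16 libraries. By that step 70.2 to 71.3% of the non-zero values in the 8 libraries compared came to whole reads (tolerance 0.02), so no test of counts was run. The 92 ERCC features were left out. Altered symbols (51) were restored by gene ID, and coordinates are from GENCODE by gene ID.

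The values were taken to log2(CPM + 1). Genes of at least 1 CPM in at least 4 of the 8 libraries entered a limma fit (version 3.58.1, R 4.3.3) of 4 group means over all 16 libraries, with a trended empirical Bayes prior. Tests were two-sided, p-values were adjusted by Benjamini-Hochberg over the 15665 genes of each contrast, and genes were called at an adjusted p under 0.05. The script was tested on simulated data. Genes were named by rule: the 10 largest called differences in each direction among protein-coding genes of at least 5 CPM whose libraries did not overlap, up to 5 called members of each list and 2 against its median, and 13 fixed genes. Some of the genes so chosen, and 1 list, are not reported here. The lists were described by counts and medians beside all tested genes, with no set test. The members compared and the gene lists were chosen with earlier results of these data known. The alternatives were other pseudocounts, filters, scalings and models, a replicate block and leaving out each of the 12 libraries that the text compares, one at a time.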

Additional observations from a re-analysis of the deposited data

Results flagged for a closer look

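Among 420 groups of 4 libraries, 1 for each named gene and state, 24 (5.71%) held a library far from the other 3, while chance gives about 1 in 20. In control abemaciclib replicate 1, which also stood apart in the second principal component, 7 genes were so placed: SPC25 at 2.48 CPM, ABCC12 at 15.1 CPM, KRT15 at 72.6 CPM, SIPA1 at 10.5 CPM, IFITM3 at 21.3 CPM, TFAP2B at 2.52 CPM and DNAJB9 at 24.8 CPM. BCL2L1 at 97.5 CPM in the same library was the eighth. In control abemaciclib replicate 2 they were SLC7A5 at 89.9 CPM, DGAT2 at 2.28 CPM and FASN at 270 CPM. In replicate 3 of that group they were CDKN2C at 7.14 CPM, CCNE2 at 4.84 CPM, IFIT3 at 14.8 CPM, CALR at 692 CPM and MT-ND4 at 19900 CPM, and in replicate 4 MT-CO1 at 5280 CPM and IDH1 at 21 CPM. In FAH knockout vehicle they were OAS3 at 87.8 CPM in replicate 1, TK1 at 114 CPM, NQO1 at 253 CPM and DNAJB9 at 14.8 CPM in replicate 2, and PCBD2 at 19.1 CPM and EHHADH at 7.08 CPM in replicate 3. The difference between the states was called for all of these genes without any 1 of the 12 libraries left out in turn.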

How the results depend on the processing

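The 21 alternatives left 4378 of 4402 values of the 210 named genes with the same direction and call, and none turned direction. Scaling mattered most for counts of calls. Genes higher in FAH knockout vehicle numbered 3495 after median-of-ratios rescaling and 3415 after quantile normalization (6037 as deposited). Genes lower numbered 3626 and 3761 (1904 as deposited). The median difference of all tested genes was 0.12 as deposited, and -0.0044 and -0.016 with these scalings. The cause of the shift was not tested. Of the calls made with these 2 scalings, 5399 and 5268 were also calls as deposited. Genes past 2-fold numbered 484 higher and 125 lower with a pseudocount of 0.1 and 148 and 28 with 5, since the pseudocount sets the fold of low genes, and 107 lower after quantile normalization, where the cause was not tested. Genes whose 95% interval lay within 1.2-fold numbered 22014 with no filter on low values, where 40068 genes were tested, and 8426 with a pseudocount of 5. Without single libraries, 12 of the 16 being left out in turn, there were 5555 to 6144 genes higher, 1728 to 1893 lower, 269 to 281 and 70 to 77 past 2-fold, and 3550 to 4054 within 1.2-fold, and FAH differed by -1.73 to -1.67. Without control abemaciclib replicate 1, which stood apart in the second component, 6144 were higher and 1744 lower.

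The replicate numbers did not pair the libraries: same-numbered libraries of the 2 states had correlations of 0.067, -0.031, 0.0052 and 0.0022 in their deviations from the group means. With the replicate block 6050 genes were higher and 1892 lower, and not every library correlated best with its own number. Calls of 9 named genes changed. PCBD1, FARSB, ADCY9 and CFLAR lost theirs under both rescalings, JAK2 and PDK1 with no filter and without several single libraries (limma adjusted p up to 0.126), SARS1 without control abemaciclib replicate 1 (0.0610) and STEAP3 without FAH knockout vehicle replicate 3 (0.0621), and CDK6 gained one under both rescalings. Rescaling by ERCC reads was not run, as the libraries held 36 to 65 of them. At about 10 to 12 reads per CPM, genes near 1 CPM carry a large counting error.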
